A study of Mus musculus with 26 samples.

Results

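Cytokine and growth factor signalling genes were represented among the C-to-U editing sites of mouse bone marrow-derived macrophages by Igf1, Ccl5, Tgfbr2 and Il18bp. Their sites were taken by gene symbol from a pair of deposited lists, which gave 4 of the 410 sites found in bulk RNA and 1 of the 171 sites found in single cells. Each gene had 1 bulk site, and the single-cell site also lay in Igf1. The bulk list came from the comparison of 1 library of Apobec1 -/- macrophages with 1 library of wild-type macrophages, and the single-cell list from 24 individually captured wild-type macrophages, all of them from a single mouse. All mice were young adults of the strain C57BL/6J, and the Apobec1 -/- animals lacked APOBEC1 in every cell. Marrow cells of both genotypes were grown in 20 ng per ml M-CSF and harvested between day 7 and day 9, and stained for the surface markers CD11b and F4/80. The lists hold editing values only, so neither the loss of Apobec1 nor the expression of macrophage markers could be read from them. Itgam and Msr1, of 10 symbols of macrophage markers, had a listed site, and of 10 markers of other marrow cells none had, against 1.38% of all protein-coding gene symbols, but a listed site does not measure expression.

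APOBEC1 is a cytidine deaminase that turns C into U in messenger RNA with the help of an RNA-binding partner, and it favours a C that follows an A in an AU-rich stretch. Most of its targets in macrophages lie in the 3′ untranslated region (3′ UTR), the part of a transcript after the stop codon, where a change leaves the protein sequence as it is. The genes described here act in separate branches of signalling between cells. IGF1 is a secreted growth factor that macrophages make. CCL5 is a secreted chemokine that attracts T cells and monocytes. TGFBR2 is the receptor kinase that binds TGF-beta and switches on SMAD proteins through its partner TGFBR1, and IL18BP is a secreted decoy that binds the inflammatory cytokine IL-18 and keeps it from its receptor.

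The sequence around each edited C is shown so that its immediate context can be compared. Each line gives 29 bases of the sense strand of the GRCm38 genome (RefSeq), which is the mm10 build of the lists, from 5′ to 3′. The capitals AC mark the edited C with the base before it, and TGAT is in capitals where it stands in the bases after the edited C.
Igf1, bulk site, chr10:87935476-87935504, plus strand: ccatggttccaaaACatgaaTGATtaata
Igf1, single-cell site, chr10:87935419-87935447, plus strand: ggccctttttggcACttctcaaatgaatg
Ccl5, bulk site, chr11:83525882-83525910, minus strand: gcttggggatgccACtcagtaatccccta
Tgfbr2, bulk site, chr9:116087838-116087866, minus strand: attcttttattgaACacttcggccatatt
Il18bp, bulk site, chr7:102015311-102015339, minus strand: gacttcaatctttACatgTGATtttgttt

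All 4 bulk sites had an A immediately before the edited base, against 87.1% of all bulk sites, and so had the single-cell site of Igf1. Among other C of the sense strand within 250 bases of the bulk sites, 24.7% followed an A. The share of A and T in the 15 bases on each side of the C was 70.0% at the Igf1 bulk site, 70.0% at Tgfbr2 and 76.7% at Il18bp, against a median of 70.0% over all bulk sites. Ccl5 stood apart from these with 46.7%. Of the 410 bulk sites, 10 had a lower share, and several more had the same share as Ccl5. Its surroundings were rich in C as well, with 32 other C within 50 bases on either side of the site, against a median of 16 over all bulk sites. None of these other C of Ccl5 was listed. The letters TGAT, which open the mooring sequence bound by the editing complex in apolipoprotein B transcripts, stood within the 15 bases 3′ of the C at the bulk sites of Igf1 and Il18bp. They stood there on the sense strand at 42 of the 410 bulk sites (10.2%) and at 5.75% of the other C. A match of letters is a description and does not show a binding site.

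All 5 sites lay in the 3′ UTR of the last exon of their gene, on the strand of the gene, with no other gene of the GENCODE vM21 annotation over them. The untranslated regions differed widely in length, as the map of sites against the stop codon shows. Igf1 (ENSMUSG00000020053.18) was edited at position 87935490 of chromosome 10, in exon 4 of transcript Igf1-202, 4756 nucleotides after the stop codon of a 3′ UTR of 6308 nucleotides. Only 4 of the 399 bulk sites placed in an annotated 3′ UTR lay farther from the stop codon. Tgfbr2 (ENSMUSG00000032440.13) was edited at position 116087852 of chromosome 9, in exon 8 of Tgfbr2-202, 2526 nucleotides into a 3′ UTR of 6085 nucleotides. At the other end, Ccl5 (ENSMUSG00000035042.2) was edited at position 83525896 of chromosome 11, in exon 3, 81 nucleotides into a 3′ UTR of 199 nucleotides, and no other bulk site lay in a shorter one. Il18bp (ENSMUSG00000070427.4) was edited at position 102015325 of chromosome 7, in exon 7 of Il18bp-203, 421 nucleotides into a 3′ UTR of 861 nucleotides. Over all 399 sites the median distance from the stop codon was 783 nucleotides and the median length of the 3′ UTR 1857 nucleotides.

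**Figure D1:**
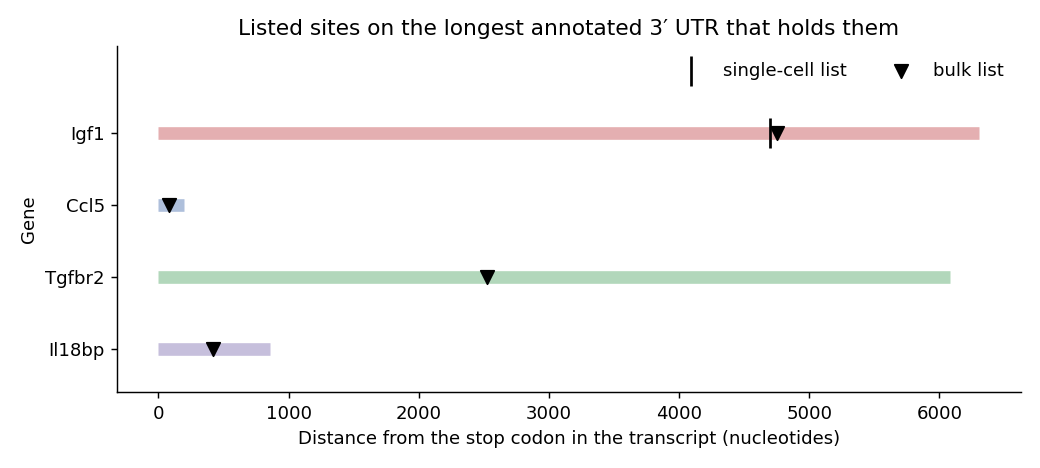
Listed sites drawn on the longest annotated 3′ UTR that holds them (x axis, nucleotides after the stop codon; y axis, gene); triangles mark sites of the bulk list and the vertical tick the site of the single-cell list. The Igf1 sites lie 4699 and 4756 nucleotides from the stop codon, and the Ccl5 site 81 nucleotides from it.

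Annotated transcript ends decided which isoforms of Igf1 and Tgfbr2 could carry the edit. Of the 8 coding transcripts annotated for Igf1, 7 of them with an annotated stop codon, 1 reached the edited positions. The others ended upstream of them. Tgfbr2 had 2 coding transcripts, of which the one ending at 116088929 stopped before the site. The Il18bp site was held by all 3 of its coding transcripts with an annotated stop codon, and in Il18bp-202 it lay 10 nucleotides from the transcript end. The remaining one of its 4 coding transcripts, Il18bp-204, has no annotated stop codon and so no 3′ UTR to hold the site. The 1 coding transcript annotated for Ccl5 held its site. The lists do not say from which isoform a read came.

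In bulk RNA the editing rate, the share of reads at a site that carry the T, was highest in Igf1. At Igf1, 8 of 40 reads were edited, which is 20.0% (95% interval 9.05% to 35.6%). At Ccl5 it was 5 of 27 reads, or 18.5% (6.30% to 38.1%). At Tgfbr2, the deepest of the sites, 8 of 60 reads were edited, or 13.3% (5.94% to 24.6%). At Il18bp, 2 of 19 reads were edited, or 10.5% (1.30% to 33.1%). The intervals of all these rates overlap. They are exact Clopper-Pearson intervals and cover counting error only, because there was 1 library per genotype and reads that carry no molecular identifier may be copies of the same molecule. In bulk RNA, a few edited transcripts in every cell and many in a few cells give the same rate and cannot be told apart.

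**Figure D2:**
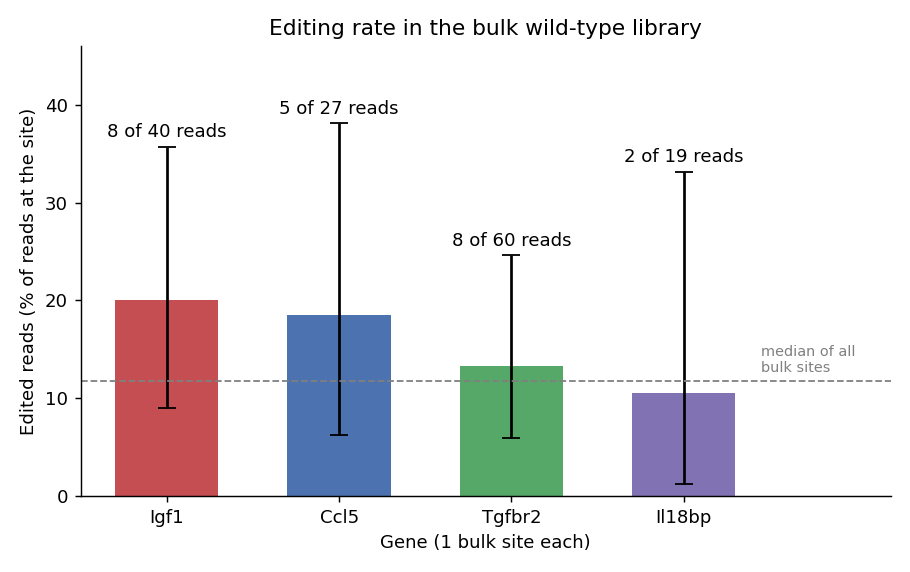
Editing rate of each bulk site in the wild-type library (y axis, percent of reads edited; x axis, gene); bars are the rate in 1 library and error bars exact 95% Clopper-Pearson intervals, with the edited reads and the depth above them. The dashed line is the median rate of all 410 bulk sites, 11.8%, and it crosses the interval of every gene.

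The order from Igf1 to Il18bp was not resolved at this depth. A Fisher-Freeman-Halton exact test of edited and unedited reads over the 4 sites gave p = 0.726 (two-sided), which compares sites within this library and does not show that the rates are equal. The list keeps sites by their rate, so lower rates were largely removed beforehand, and neither the test nor the intervals allow for that. Taking the higher minus the lower, neighbours in the order differed by 1.48 percentage points between Igf1 and Ccl5 (95% Newcombe interval -19.0 to 19.5), by 5.19 between Ccl5 and Tgfbr2 (-9.79 to 24.5) and by 2.81 between Tgfbr2 and Il18bp (-19.0 to 16.0). The widest gap, between Igf1 and Il18bp, was 9.47 points (-13.5 to 26.1).

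Set among all bulk sites, Igf1 and Ccl5 were in the upper part of the list. Of the 410 sites, 41 had a higher rate than Igf1, 46 a higher rate than Ccl5, 143 a higher rate than Tgfbr2 and 298 a higher rate than Il18bp. Pooled over the genes, 23 of 146 reads were edited, 15.8% (exact 95% interval 10.3% to 22.7%), against 2271 of 14932 reads (15.2%) at the other 406 sites. The mean of the rates was 15.6% over the 4 sites and 14.2% over the others, and the median depth was 33.5 and 30 reads. The interval of the pooled rate thus holds the rate of the other sites. Both sets had passed the same filter on rate, and the interval treats all reads as drawn at a single rate. The comparison is therefore a description and does not show that the sets are alike.

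The deposited lists keep sites by their depth and rate, and the genes differed in how far they lay above that limit. Among the filters named for the bulk list were at least 2 edited reads and a vector of base counts at least 15 long. A further one was an angle of at least 0.11 radians between the genotypes. Others, such as those on known variants, splice junctions and repeats, do not enter the margins given here. If all knockout reads carried C, the filters on reads, vector and angle would pass from 4 edited reads at the depth of Igf1, 3 at that of Ccl5, 6 at that of Tgfbr2 and 2 at that of Il18bp. Igf1 thus had 4 reads more than the fewest, Ccl5 and Tgfbr2 had 2 more each, and Il18bp had none to spare. Il18bp shared this with many sites of its depth, since 28 of the 35 sites with 19 reads had 2 edited reads. The limit is not strict in the deposited values, where 28 of 410 sites lay below the angle and 7 sites had a single edited read. Whether the deposited rates are those the filters saw is not known, so the margins hold for the deposited values only. The number of knockout reads at each site is not part of the values used here.

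**Figure D3:**
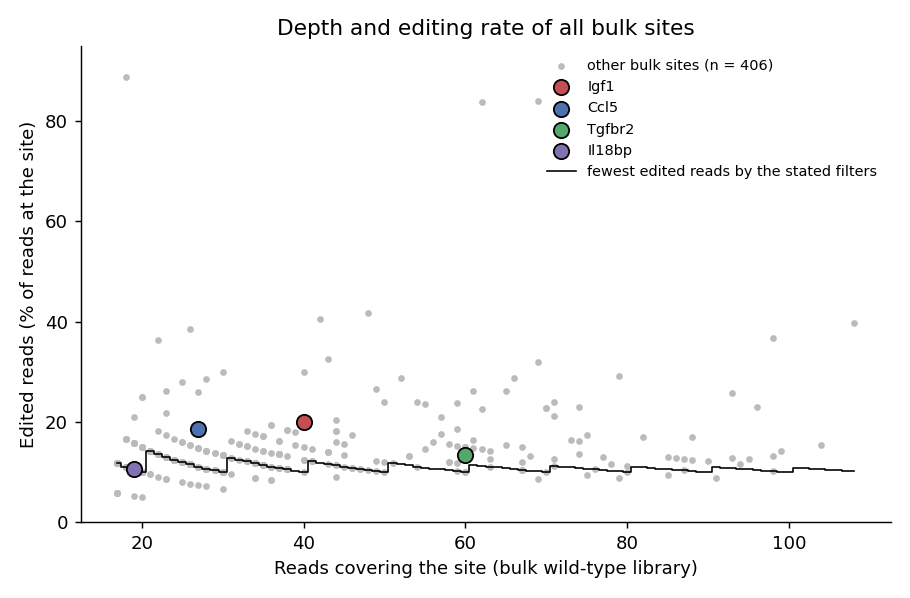
Editing rate against depth for all 410 bulk sites (x axis, reads covering the site; y axis, percent of reads edited); grey points are the other 406 sites, coloured points the 4 genes and the stepped line the fewest edited reads that the named filters let pass. Il18bp lies on the line at 19 reads and 10.5%, and Igf1 lies above it at 40 reads and 20.0%.

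No bulk position of these genes recurred in the single-cell list, against 13.4% of all bulk sites. The single-cell list keeps sites edited in at least 3 of the 24 cells and gives no read depth. A bulk position outside it may have been edited in fewer cells or removed by another filter. Its absence therefore does not show that the position was unedited in single cells. The paper counts a bulk site as edited when any cell shows the edit, and reports this for a larger share of the bulk sites. The 13.4% is thus the overlap of the lists and not the share of bulk sites edited in single cells. Igf1 was the only one of the 4 genes with any single-cell site, and 17.5% of the genes of the bulk list had one. All 4 genes had 1 bulk site, as did 74.5% of the genes of the bulk list. Ccl5, Tgfbr2 and Il18bp have no row in the single-cell list, so their editing in single cells was not analysed here.

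Igf1 was listed at different positions in bulk RNA and in single cells. The single-cell site, position 87935433, lay 57 nucleotides upstream of the bulk site in the same exon, 4699 nucleotides from the stop codon. Neighbouring listed sites of a gene, over both lists, lay 84 nucleotides apart at the median of 210 pairs. Igf1 was one of 20 genes, of 48 with a site in both lists, that shared no position between them. The share of A and T was 60.0% at the single-cell site, against 70.0% at the bulk site. Within 50 bases on either side, 21 other C surrounded the single-cell site and 16 the bulk site.

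In single macrophages the Igf1 site was listed as unedited in most cells, and a single cell held most of its summed rate (70.2%). It was covered in 21 of the 24 cells and edited in 3 of those, 14.3% of covered cells. The cells came from a single mouse and 3 edited cells is the fewest the list admits, so no interval is given. The rate was 75.0% in the cell of column 15 of the list, 28.6% in column 9 and 3.23% in column 16. The other 18 covered cells were listed at 0, and 3 cells had no coverage. The columns carry neither cell names nor read depths, so each rate, the 75.0% included, may rest on few reads. The paper asks for a minimum number of reads per cell when judging such spread, which could not be checked here. The mean was 5.09% ± 17.2 (SD over 21 cells) with a median of 0, and without the cell at 75.0% the mean was 1.59%. This SD holds both the spread between cells and counting error, which cannot be separated without the depth. The bulk site of Igf1 at 20.0% is another position, so the mean over cells and the bulk rate are not values of the same site.

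**Figure D4:**
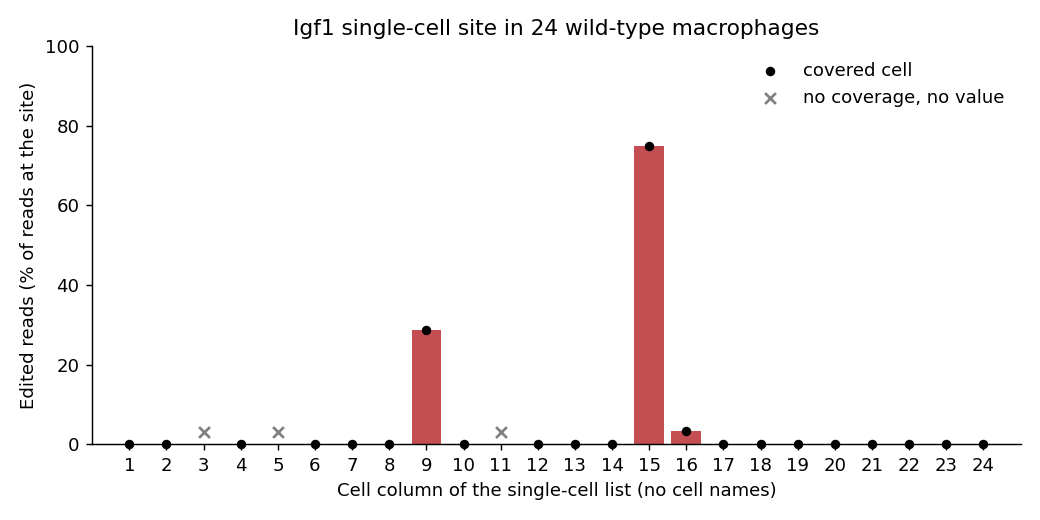
Editing rate of the Igf1 single-cell site in each of the 24 cell columns (x axis, column number; y axis, percent of reads edited); bars and dots are covered cells and crosses, set just above the axis, cells without a value. The cells of columns 9, 15 and 16 show editing at 28.6%, 75.0% and 3.23%, and 18 covered cells are at 0.

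A pattern of this kind was common among the listed single-cell sites. Editing in exactly 3 cells, the fewest the list admits, was found at 36 of the 171 sites (21.1%), and their highest rates ran from 28.6% to 93.8% with a median of 59.6%. At 33 of the 171 sites a cell exceeded the maximum of Igf1. The SD of Igf1 was exceeded at 54 sites, with a median SD of 14.4 percentage points over all sites. Its mean was low in the list, with 135 sites above it and 35 below.

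The cells with Igf1 editing differed in the share of their covered sites that were listed as edited. The cell of column 16, at 3.23% in Igf1, had the most edited sites of all, 84 of 161 covered sites (52.2%). Column 15, at 75.0% in Igf1, had 47 edited of 146 covered sites (32.2%), and column 9, at 28.6%, had 62 of 155 (40.0%). Over the 24 cells the share of covered sites that were edited ran from 20.9% to 52.2% with a median of 36.8%. The highest Igf1 rate thus came from a cell below the median of this share. A covered site counts as edited at any listed rate, however low, so the share may also depend on read depth. Depth is not given for the cells, and its part in these differences was not tested.

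The sites most like Igf1 over the cells were in Anxa4, Lamp2 and Ssr3, by Spearman's rho over cells covered at both sites. They are the highest of 128 sites compared over at least 18 cells, and each coefficient rests on at most 3 edited cells of Igf1, so these are descriptions without a test. The site in Anxa4, an annexin gene, is position 86736918 of chromosome 6 and had rho = 0.81 over 21 cells. It was edited at 52.9% in column 9, 26.1% in column 15 and 9.09% in column 16. The site in Lamp2, a gene of the lysosomal membrane, is position 38419766 of chromosome X and had rho = 0.74 over 19 cells, but it was not covered in column 15, so that only 2 edited cells of Igf1 enter. The site in Ssr3, a subunit of the translocon-associated complex of the endoplasmic reticulum, is position 65379905 of chromosome 3 and had rho = 0.64 over 21 cells, with 35.7% in column 15 and 0 in column 16. Rates of a cell come from 1 library, so its depth and amplification are shared by all sites. The median rho over the 128 sites was 0.08. The order of the sites depended on the measure and on the cell at 75.0%. By Pearson's r the highest were Msn (0.93), Bcap29 (0.88) and Mbnl1 (0.83), against 0.69 for Anxa4, and without that cell Tram1 had the highest rho (0.79).

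Other genes of the same pathways were looked up by symbol in both lists of sites. Over 5 gene lists with 136 genes of cytokine and growth factor signalling, 5 had a bulk site and 3 a single-cell site, and 4 of those with a bulk site are the genes chosen here. Of the 21924 protein-coding gene symbols of GENCODE vM21, 1.21% had a bulk site and 0.379% a single-cell site, expressed or not. Beside the 4 genes, the bulk list held Bmpr2, a receptor for bone morphogenetic proteins, at 3 of 30 reads (10.0%, exact 95% interval 2.11% to 26.5%). Of the 14 genes of the IGF axis, Igf1 and Igf2r were listed, and of the 28 genes of the TGF-beta superfamily Tgfbr2, Bmpr2 and Tgfbi. Ccl5 was the only one listed of 27 chemokines and chemokine receptors, and Il18bp the only one of 21 genes of the IL-1 and IL-18 family. None of 46 other cytokines, receptors, kinases and regulators was listed, Csf1r and Il10rb among them. A gene outside the lists may be unedited, edited but removed by the filters, too thinly covered or not expressed, and the lists do not separate these.

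Both further genes with single-cell sites showed the wide range seen in Igf1, which was common in the list. Over all 171 single-cell sites the highest rate had a median of 52.6% and the SD a median of 14.4 percentage points. Igf2r encodes the receptor that clears IGF2 and carries mannose 6-phosphate enzymes to the lysosome. It had a pair of sites on chromosome 17. At 12682453, 5 of 22 covered cells carried the edit and the mean rate was 9.56% ± 20.8 (SD, n = 22 cells), reaching 70.0% in the highest cell. At 12682573 it was 6 of 20 covered cells, with a mean of 7.47% ± 17.3 and 75.0% in the highest cell. Tgfbi, a secreted matrix protein induced by TGF-beta, carried the edit in 5 of 24 cells, with a mean of 7.62% ± 20.7 and 88.0% in the highest cell. Neither gene was in the bulk list.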

How the data were processed

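Per the submitters' processing notes and methods, Trim Galore 0.2.5 was used for trimming, TopHat2 for unique alignment to mm10 and Picard for the removal of duplicates. The deposited bulk values are the count of reads covering a site and the fraction of them edited in the wild-type library, for C-to-T changes absent from the knockout library; the single-cell list gives an edited fraction for every cell and the fraction of cells edited, without depth. For its filters beyond 3 edited cells: not given in the sources used here. Depth at a bulk site ran from 17 to 108 reads, and depth multiplied by rate was whole within 0.001 at 410 of 410 sites. Library totals were not used here.

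Rows were taken by exact gene symbol. The members and gene lists were chosen with earlier results of these data known. Named are the 4 genes, list genes with a site, and the 3 sites with the highest Spearman correlation with Igf1. Sequences were read with samtools 1.23.1 from RefSeq GRCm38 and placed on GENCODE vM21, with distances taken on the longest 3′ UTR holding the site. Intervals and the exact test, made in Python 3.11.15 with NumPy 2.4.6, SciPy 1.17.1 and pandas 2.3.3, were tested on simulated data. Plots were made with matplotlib 3.10.9. Alternatives varied depth, edited reads, interval, averaging, cells and sequence window.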

Additional observations from a re-analysis of the deposited data

How the results depend on the processing

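Values were recomputed under 50 alternatives. Some of these, such as the Wilson intervals, leave the rate itself as it is, so a count of unchanged values is no measure of stability. With at least 30 reads required, 2 of the 4 bulk sites remained, Igf1 and Tgfbr2. With at least 20 reads, 3 edited reads or 5 edited reads, 3 remained in each case, since Il18bp fell away. The mean of the Igf1 single-cell site over edited cells only was 35.6%, because its construction leaves out the cells at 0, and leaving out each covered cell in turn gave 1.59% to 5.34%. The pooled bulk rate ran from 14.2% to 17.4% when each gene was left out. The exact test over the sites gave p = 0.611 without Il18bp, and permuting read labels 100000 times gave permutation p = 0.741. The likeness of Anxa4 to Igf1 was rho = 0.75 without the cell at 75.0%, and that of Ssr3 0.50. Without that cell Tram1 (0.79), Ostf1 (0.65) and the Cybb sites at 9437680 and 9435698 (0.61 each) passed Ssr3. Sites in Atp6ap2 (0.57), Spp1 (0.52) and Msn (0.51, position 96168089) passed it too, while the other Cybb sites compared lay below it. By Pearson's r another Msn site, at 96168130, led with 0.93. These alternatives were chosen after seeing the data. With 25 bases on each side, the share of A and T at Il18bp was 66.0%, against 76.7% with 15. No paired analysis was possible because there was 1 bulk library per genotype and the cell columns carry no names. Depth limits every bulk rate here, since 2 to 8 edited reads stand behind each.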

Other observations

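The edited C of Igf1 in bulk RNA and that of Il18bp were both followed directly by the letters ATG, noticed only once the sequences were printed. On the sense strand ATG follows the edited C at 18 of the 410 bulk sites (4.39%), so 2 of the 5 sites is a count chosen after it was seen. The Tgfbr2 site lies in sequence written in lower case (masked as repeat) in the RefSeq genome, as do 45 of the 410 bulk sites (11.0%). The paper's filters removed sites in masked simple or tandem repeats, and whether the same mask was used is not known.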
